A study of Mus musculus with 26 samples.

Results

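The Slc25 family of mitochondrial carriers was followed in brown adipose tissue (BAT). The members are the 47 protein-coding genes of the count table whose mouse symbol is Slc25a followed by a number, out of 50686 genes listed. The uncoupling proteins Ucp1 to Ucp3, which are carriers of the same fold under other symbols, are not among them. Of the 47, 42 passed the filter on low counts and were tested together with all 17286 genes that passed, and the 5 others are given by their counts.

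RNA-sequencing was carried out on BAT of 26 male C57BL/6J mice in 4 groups. The knockout mice, fat-specific Afadin knockouts (FAKO), carry Mllt4 flox/flox alleles with Adiponectin-Cre, which is active in adipocytes and not in the other cells of the tissue, and the control mice were their littermates, whose own alleles at these loci are not given in the sources used here. The animals were 12 to 16 weeks old and were kept alone for 14 to 18 days at thermoneutrality, which the labels give as 30 °C and the methods as 29 °C. The groups were 7 control mice and 7 FAKO-labelled mice left at thermoneutrality, and 5 control mice and 7 FAKO-labelled mice moved to 5 °C for 6 h. The labels place the tissue as supraclavicular.

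Carriers of this family are small proteins of the inner mitochondrial membrane, with some members in peroxisomes or the outer membrane, and most of them exchange 1 solute for another. They let ADP and phosphate reach the ATP synthase, pass acylcarnitines to beta-oxidation, link the citric acid cycle to the cytosol, and bring in the cofactors and iron that mitochondrial enzymes need. Brown fat is rich in mitochondria, and in the cold it burns fatty acids and sugar to make heat through Ucp1, so that many of these solutes cross the membrane at a high rate.

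Sequence in front of the gene start is shown for 4 carriers whose cold changes open the results, chosen after their values were seen from those that had an entry, and for Slc25a25, whose entry holds a cAMP response element, a motif that cAMP-regulated factors can bind. The sequences are from RefSeq windows of GRCm38.p6 (250 bases before to 50 after a start), printed without bases of an annotated exon, and run 5′ to 3′ on the strand of the gene. They lie at chr4:141623835-141624084 (minus strand) for Slc25a34, chr15:81360813-81361015 (minus) for Slc25a17, chr9:108661886-108662087 (plus) for Slc25a20, chr13:56438105-56438354 (plus) for Slc25a48 and chr2:32424067-32424316 (minus) for Slc25a25, where the start is that of a short transcript inside the gene. Capitals mark TGACCT, the reverse complement of the nuclear receptor core motif AGGTCA, in Slc25a34, and the cAMP response element TGACGTCA in Slc25a25.
Slc25a34: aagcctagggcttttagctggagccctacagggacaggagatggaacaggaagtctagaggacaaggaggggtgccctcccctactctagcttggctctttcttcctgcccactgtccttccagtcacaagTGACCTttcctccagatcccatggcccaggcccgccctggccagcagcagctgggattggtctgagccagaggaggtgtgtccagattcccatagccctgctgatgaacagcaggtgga
Slc25a17: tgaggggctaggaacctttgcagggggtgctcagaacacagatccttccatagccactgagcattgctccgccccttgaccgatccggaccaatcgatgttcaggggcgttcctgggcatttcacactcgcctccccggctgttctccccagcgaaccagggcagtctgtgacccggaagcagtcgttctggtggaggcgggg
Slc25a20: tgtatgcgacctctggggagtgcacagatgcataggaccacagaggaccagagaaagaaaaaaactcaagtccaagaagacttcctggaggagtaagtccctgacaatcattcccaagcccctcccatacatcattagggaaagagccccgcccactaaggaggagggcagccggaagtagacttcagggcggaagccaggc
Slc25a48: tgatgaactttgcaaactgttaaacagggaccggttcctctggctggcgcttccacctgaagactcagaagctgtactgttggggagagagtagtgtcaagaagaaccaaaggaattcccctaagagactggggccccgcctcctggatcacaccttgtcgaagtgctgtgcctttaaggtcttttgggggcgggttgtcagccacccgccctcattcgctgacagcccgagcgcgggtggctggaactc
Slc25a25: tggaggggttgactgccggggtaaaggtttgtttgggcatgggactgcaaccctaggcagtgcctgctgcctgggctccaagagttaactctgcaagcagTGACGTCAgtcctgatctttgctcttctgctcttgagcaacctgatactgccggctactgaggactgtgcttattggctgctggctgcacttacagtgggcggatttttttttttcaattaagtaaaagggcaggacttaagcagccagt
Of the 47 members, 36 had such a window, 46 windows in all, and Slc25a51, Slc25a27 and Slc25a35 were among those without one. Letters were searched on both strands. TGACGTCA was found in 2 of the 46 windows, those of Slc25a25 and Slc25a36, and in 1.79% of all 32851 windows. The core motif AGGTCA was in 4 (Slc25a34, Slc25a39, Slc25a45 and Slc25a47) and in 16.3% of all. The E-box CACGTG was in 8 windows of 7 members and in 7.15% of all, and CCAAT in 22 windows of 19 members and in 37.4% of all. The ERR element TCAAGGTCA and the direct repeat element DR1, which both contain letters of the core motif, were in 0 member windows, and in 0.423% and 0.0396% of all. A match is a description of these letters only.

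Total counts per mouse ran from 12705969 to 25732258, and mitochondrially encoded genes took 14.3% to 40.5% of them. Afdn, the targeted gene (Mllt4 in the older name), had 151 to 214 CPM (counts per 1000000 of the library after TMM scaling) in control mice and 154 to 231 in FAKO-labelled mice at 30 °C, so that the label was not visible there, and 67.9 to 79.2 against 53.3 to 65.3 at 5 °C, where the groups did not overlap (log2 fold change -0.33, adjusted p = 0.116). The FAKO groups are therefore named by their label. These are counts of RNA in whole tissue. For protein, the paper reports a smaller rise of Afadin in cold BAT of FAKO mice, and it also shows a blot of Afadin at thermoneutrality. Brown adipocyte markers summed to 1980 to 3110 CPM at 30 °C and 17116 to 27228 at 5 °C over both labels, and Ucp1 made up most of the sum in cold control mice. Of these 8 markers, 5 rose and 1 fell in the cold in control mice, and 6 rose and 1 fell in FAKO-labelled mice. Of 8 general adipocyte markers, 2 rose and 3 fell in control mice, and 4 rose and 4 fell in FAKO-labelled mice. All 12 skeletal muscle markers were detected. They summed to 10.7 to 6263 CPM (median 78.4) in control mice and 8.21 to 1754 (median 921) in FAKO-labelled mice at 30 °C. At 5 °C the sums were 2.06 to 5554 (median 948) in control mice and 2.78 to 8878 (median 915) in FAKO-labelled mice. Their median log2 fold change in the cold was 0.56 in control mice and 1.33 in FAKO-labelled mice. Of the 12, 0 passed in any comparison, which does not show that the groups were balanced in muscle. Of the other cell types looked at, 4 of 5 tested neutrophil markers rose in the cold in control mice and 5 of 5 in FAKO-labelled mice, 4 of 6 endothelial markers rose and 2 fell in each, and 4 and 3 of 7 lymphocyte markers fell. Of 8 macrophage markers, 2 rose and 3 fell in control mice and 5 rose and 2 fell in FAKO-labelled mice, 2 and 3 of 5 tested nerve and Schwann cell markers fell, and of 6 fibroblast and preadipocyte markers 1 fell in control mice and 1 rose in FAKO-labelled mice. Their part in the carrier values was not tested. In these whole-tissue samples, fewer cells of a type and less RNA per cell cannot be told apart.

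After 6 h in the cold, the carriers moved in both directions in control mice. Slc25a34, a carrier without a settled substrate, rose by 6.35 on the log2 scale, the peroxisomal cofactor carrier Slc25a17 by 2.91, the calcium-regulated ATP-Mg/phosphate carrier Slc25a24 by 1.63, the NAD carrier Slc25a51 by 1.46 and the carnitine-acylcarnitine carrier Slc25a20 by 1.26. On the falling side the log2 fold change was -2.78 for Slc25a48, a choline carrier, -1.60 for the citrate carrier Slc25a1, -1.42 for the dicarboxylate carrier Slc25a10 and -1.41 for the uncoupling protein-like Slc25a27. In all, 13 of 42 members rose and 15 fell at an adjusted p below 0.05 (quasi-likelihood F-test of edgeR, Benjamini-Hochberg adjusted over all genes tested), while 14 did not pass. These shares of 31% and 35.7% stand beside 31.6% and 33.4% of all genes tested, 65% in either direction, so that the number of carriers called was near the background.

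In FAKO-labelled mice, 16 of 42 members rose in the cold and 13 fell, 38.1% and 31% of the members, beside 33.7% and 34.9% of all genes, 68.6% in either direction. Under library-size scaling, which took the all-gene median to -0.34, the split was 11 and 18, beside 18.6% and 48.5% of all genes. Without the 10 libraries over 1000 CPM of muscle markers, 14 rose and 14 fell in control mice (28.4% and 30.5% of all genes), and 15 and 11 in FAKO-labelled mice (29.2% and 31.6%). That setting kept 5 control and 4 FAKO-labelled mice at 30 °C, and 3 and 4 at 5 °C. Calls lost under it, here and below, cannot be told apart from the effect of fewer mice. The median log2 fold change of the members was -0.05 in control mice and 0.12 in FAKO-labelled mice, and that of all genes was -0.01 and -0.03. The sign of the FAKO median rests on the setting, as it was -0.20 under library-size scaling, -0.04 with upper-quartile factors and -0.03 without the libraries rich in muscle markers. Changes of more than 1 on the log2 scale were seen in 11 of 42 members in each comparison, or 26.2%, against 24.9% of all genes in control mice and 25.0% in FAKO-labelled mice. The same 13 members rose in both, namely Slc25a3, Slc25a5, Slc25a17, Slc25a18, Slc25a20, Slc25a22, Slc25a24, Slc25a30, Slc25a33, Slc25a34, Slc25a39, Slc25a46 and Slc25a51. Another 13 fell in both, among them Slc25a11, Slc25a13, Slc25a15, Slc25a16, Slc25a23, Slc25a27, Slc25a29, Slc25a35, Slc25a40, Slc25a45, Slc25a47 and Slc25a48. These comparisons share no mice, but they come from the same fit, with a shared estimate of the spread. The share of all genes called alike in both was not counted, so these lists have no background beside them. With 65% of all genes called in control mice and 68.6% in FAKO-labelled mice, many genes of any kind would be called in both. Slc25a1 and Slc25a10 passed in control mice and Slc25a12, Slc25a25 and Slc25a44 in FAKO-labelled mice, and 11 passed in neither. The cold groups were separate from the thermoneutral ones, with no overlap between mice, for 10 members above and 12 below in control mice (23.5% and 22.9% of all genes), and for 13 above and 7 below in FAKO-labelled mice (21.1% and 19.3%).

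**Figure D1:**
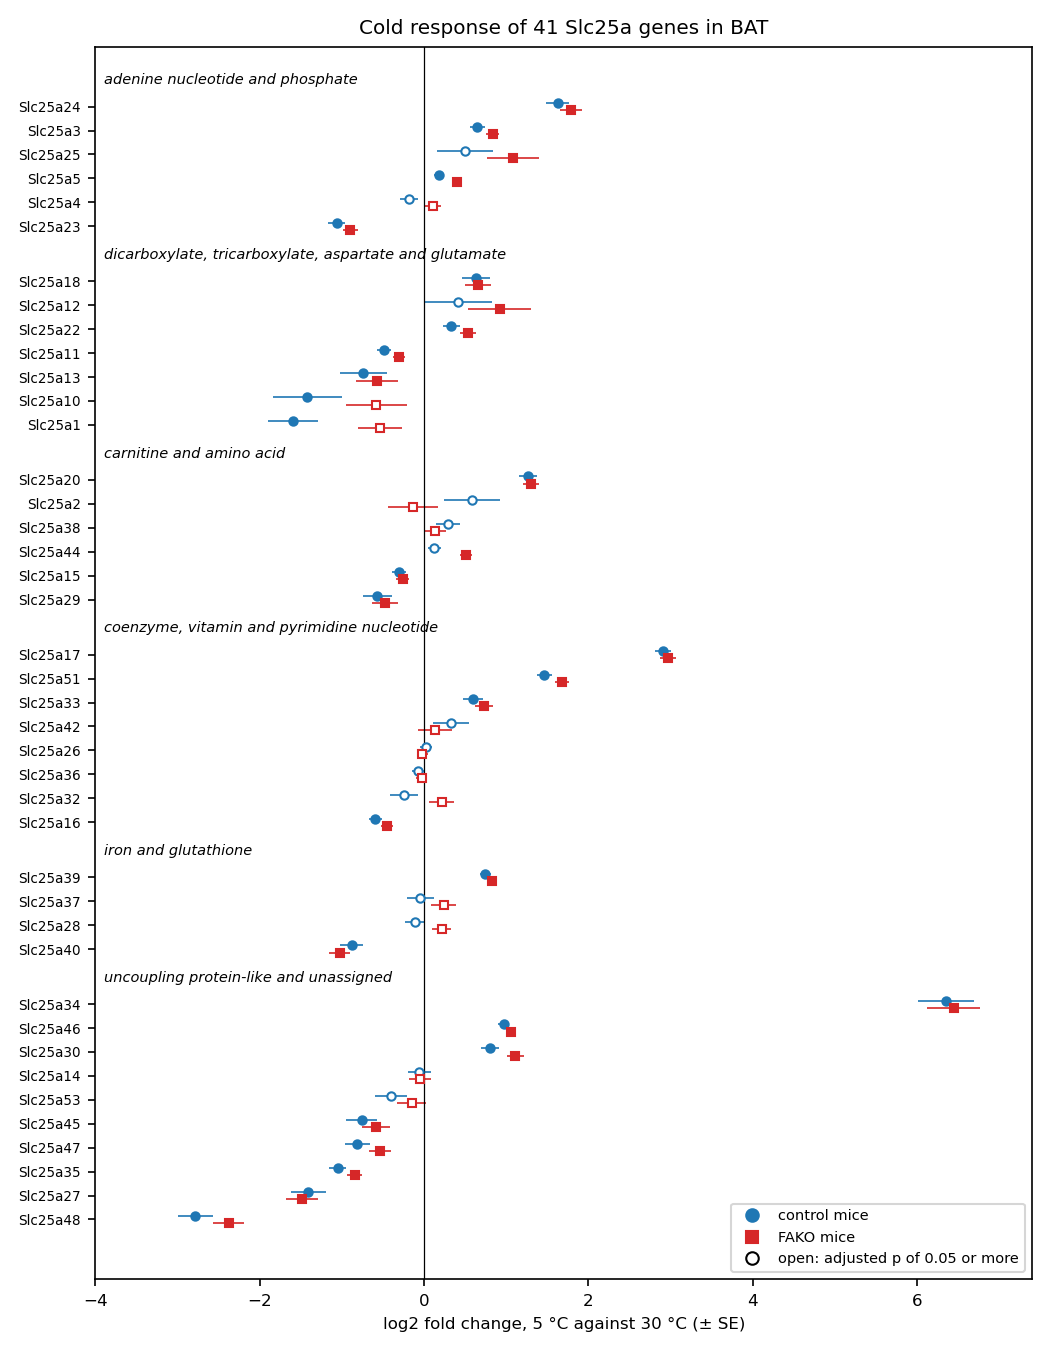
Log2 fold change of 41 of the 42 tested carriers at 5 °C against 30 °C (x axis, ± SE), in control mice (blue circles, 5 against 7 mice) and FAKO-labelled mice (red squares, 7 against 7), by what they carry. Open symbols have an adjusted p of 0.05 or more. Slc25a34 lies at 6.35 and 6.44, beyond every other carrier, and Slc25a48 at the other end at -2.78 and -2.38.

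Summed over the family, CPM were 2985 ± 210 (SD, n = 7) in control mice and 2791 ± 174 (n = 7) in FAKO-labelled mice at 30 °C, and 4098 ± 172 (n = 5) and 4434 ± 446 (n = 7) at 5 °C. Levels of different genes were compared as CPM per kb of exon, with all annotated exons of a gene merged, which understates genes with long unused exons. At 30 °C in control mice the adenine nucleotide translocases led the order, Slc25a5 with 158 ± 12.7 and Slc25a4 with 146 ± 8.14 CPM per kb, values that differed by less than their summed SDs. Slc25a1 (106 ± 57.0) came next. Slc25a11 (60.3 ± 4.95), Slc25a20 (58.3 ± 8.72), Slc25a51 (56.1 ± 4.52) and Slc25a39 (52.5 ± 3.99) were lower, each within the spread of the next of these. At 5 °C Slc25a5 was still first (179 ± 5.64), followed by Slc25a51 (155 ± 14.9), Slc25a20 (140 ± 7.81), Slc25a4 (128 ± 19.4), Slc25a17 (93.9 ± 7.77) and Slc25a39 (87.9 ± 2.78), of which Slc25a51 and Slc25a20 each lay within the spread of the next, as did Slc25a17. Slc25a17 had been in place 13 at 30 °C.

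**Figure D2:**
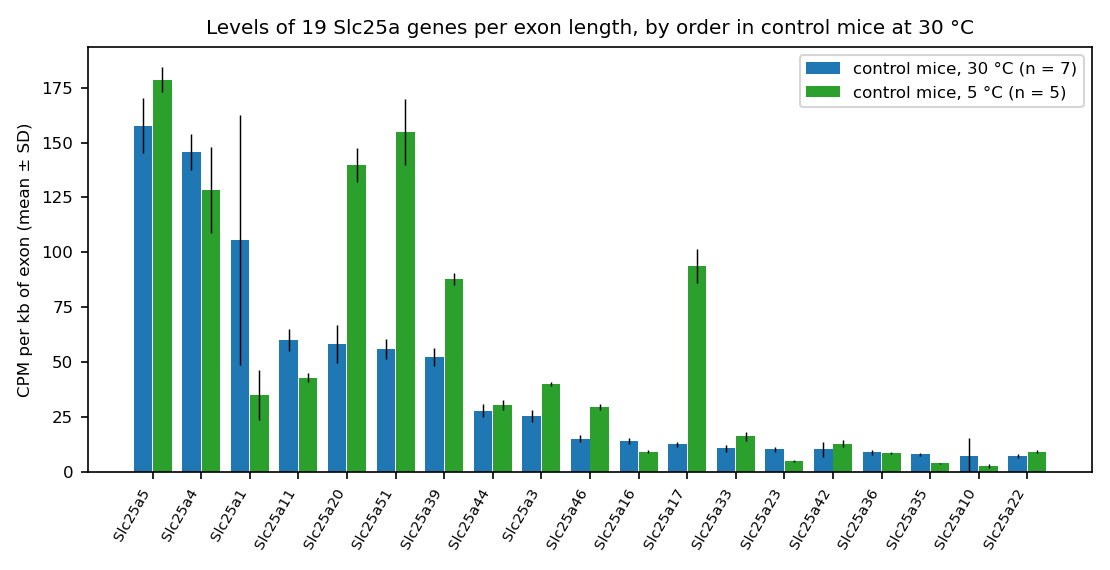
Mean level per exon length (CPM per kb, ± SD) of 19 of the 20 carriers with the highest level in control mice at 30 °C, at 30 °C (blue, n = 7) and 5 °C (green, n = 5), in the order of the 30 °C level. Slc25a5 is first at both temperatures, and the 5 °C bars of Slc25a51, Slc25a20 and Slc25a17 stand well above their 30 °C bars.

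The carriers of adenine nucleotides and phosphate supply the ATP synthase and set the matrix pool of adenine nucleotides. Of the 9 members of this group, 3 rose, 1 fell and 2 did not pass in control mice, 4 rose, 1 fell and 1 did not pass in FAKO-labelled mice, and 3 were not tested. Beside these counts, and those of the groups below, stand the shares of all genes tested. They were 31.6% up and 33.4% down in control mice, and 33.7% and 34.9% in FAKO-labelled mice. The counts of such small groups were not tested against these shares. Slc25a3 (ENSMUSG00000061904.12, chr10:91116574-91124059 on mm10, minus strand), the phosphate carrier, had 126 to 166 (median 139.9) CPM in control mice at 30 °C and 222, 231, 218, 215 and 226 at 5 °C. In FAKO-labelled mice it had 112 to 147 (median 138) at 30 °C and 181 to 279.7 (median 234) at 5 °C. Every cold mouse was above every thermoneutral mouse of its label, and the log2 fold change was 0.65 (SE 0.09, adjusted p = 4.53e-07) in control mice and 0.83 (SE 0.08, adjusted p = 1.2e-09) in FAKO-labelled mice.

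Slc25a5, the ubiquitous adenine nucleotide translocase, stood at 239 to 293 (median 258) CPM in control mice at 30 °C and at 304, 285, 297, 284 and 301 at 5 °C. FAKO-labelled mice had 231 to 250.5 (median 242) at 30 °C and 272 to 353 (median 326) at 5 °C. The groups overlapped in control mice and were apart in FAKO-labelled mice, with log2 fold changes of 0.18 (SE 0.06, adjusted p = 0.0108) and 0.40 (SE 0.06, adjusted p = 3.43e-07). Neither call held under library-size scaling (0.06, adjusted p = 0.596, and 0.09, adjusted p = 0.380), and the call in control mice was also lost with upper-quartile factors (0.08, adjusted p = 0.226) and without the libraries over 1000 CPM of muscle markers (0.10, adjusted p = 0.309). Slc25a4, the translocase typical of heart and muscle, had 316 to 365 (median 349) CPM in control mice and 296 to 338 (median 319.5) in FAKO-labelled mice at 30 °C. At 5 °C the control mice had 383, 281, 278, 275 and 294, and FAKO-labelled mice had 264 to 467 (median 333). Its cold groups overlapped the thermoneutral ones, with -0.18 (SE 0.11, adjusted p = 0.128) in control mice and 0.11 (SE 0.10, adjusted p = 0.329) in FAKO-labelled mice. The control mouse at 383 CPM also had 5554 CPM of muscle markers, and without that mouse the log2 fold change in control mice was -0.28 (adjusted p = 0.0201). With that mouse kept, it passed under library-size scaling (-0.31, adjusted p = 0.0244) and with upper-quartile factors (-0.29, adjusted p = 0.0166). It also passed in a fit to only the groups compared (-0.23, adjusted p = 0.0243) and without the libraries over 1000 CPM of muscle markers (-0.31, adjusted p = 0.00473).

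The 3 calcium-regulated ATP-Mg/phosphate carriers, which load or unload adenine nucleotides of the matrix, moved apart. Slc25a24 (ENSMUSG00000040322.10, chr3:109123149-109168457 on mm10, plus strand) had 5.37 to 8.05 (median 5.99) CPM in control mice at 30 °C and 18.9, 20.2, 18.5, 18.3 and 21.3 at 5 °C, and in FAKO-labelled mice 5.22 to 6.95 (median 5.87) and 11.5 to 27.8 (median 19.9). No cold mouse overlapped a thermoneutral mouse, and the log2 fold change was 1.63 (SE 0.14, adjusted p = 8.92e-11) and 1.79 (SE 0.13, adjusted p = 3.39e-12). Slc25a23 (ENSMUSG00000046329.14, chr17:57043711-57059863 on mm10, minus strand) had 44.8 to 60.3 (median 56.6) CPM in control mice at 30 °C and 23.7, 28.4, 28.8, 24.6 and 25.3 at 5 °C, and in FAKO-labelled mice 43.9 to 59.5 (median 47.4) and 23.01 to 35.8 (median 25.2). It went the other way, again without overlap, by -1.06 (SE 0.10, adjusted p = 1.09e-09) and -0.90 (SE 0.09, adjusted p = 2.79e-09). Slc25a25 varied among thermoneutral mice, with 6.23 to 35.6 (median 22.5) CPM in control mice and 6.53 to 33.6 (median 15.7) in FAKO-labelled mice, and had 34.9, 32.1, 30.9, 31.8 and 28.2 at 5 °C in control mice and 20.8 to 53.03 (median 32.6) in FAKO-labelled mice. All groups overlapped, and the log2 fold change was 0.50 (SE 0.34, adjusted p = 0.199) and 1.08 (SE 0.32, adjusted p = 0.0038). Without the 10 libraries over 1000 CPM of muscle markers, it was 0.65 (adjusted p = 0.140) in FAKO-labelled mice. The remaining members were near the limit of detection. Slc25a31, a translocase known from testis, had 0 to 16 counts per mouse, Slc25a41 0 to 4 and Slc25a54 0 to 1.

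**Figure D3:**
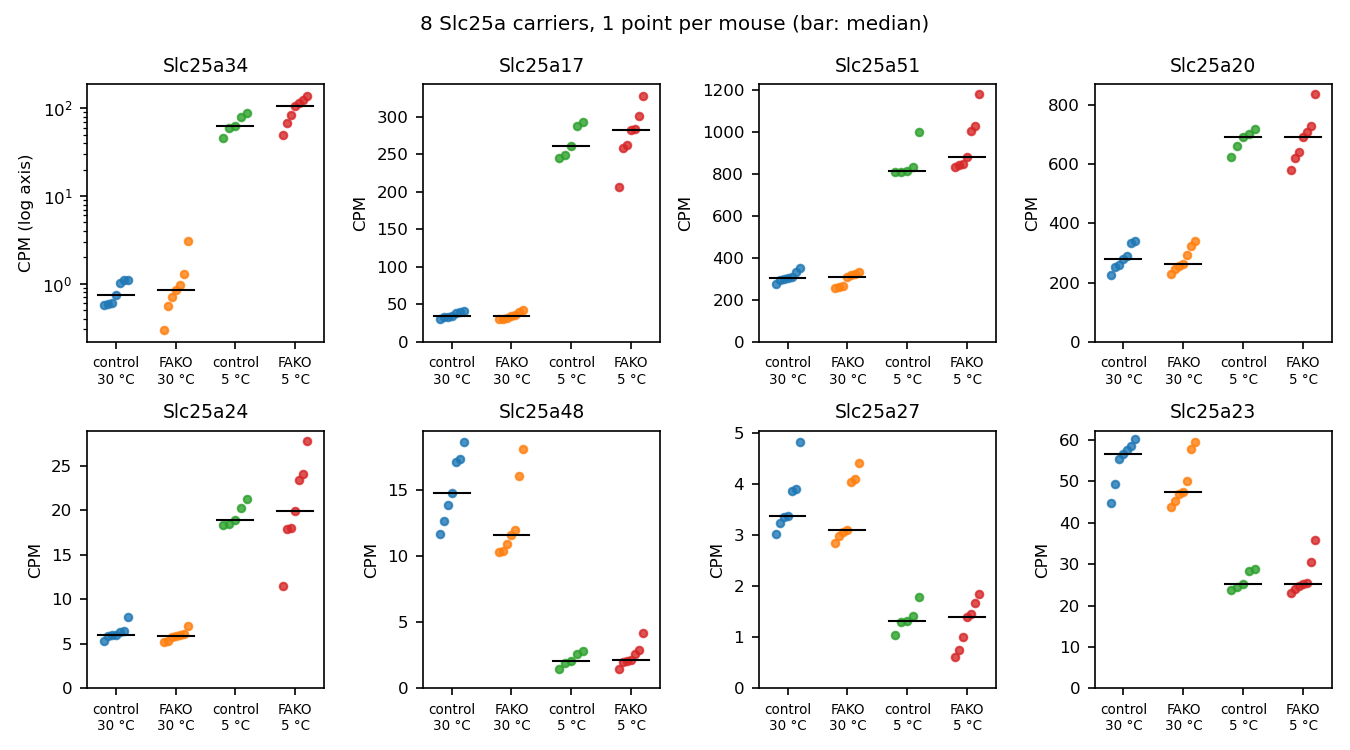
CPM of 8 carriers in each mouse (points) with the group median (bars), for both labels at 30 °C and 5 °C, with a log axis for Slc25a34 only. In each panel the cold mice of both labels lie apart from the thermoneutral mice, above them for Slc25a34, Slc25a17, Slc25a51, Slc25a20 and Slc25a24, and below them for Slc25a48, Slc25a27 and Slc25a23.

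Di- and tricarboxylates, aspartate and glutamate are carried by 8 members, which serve citrate export for lipid synthesis and the malate-aspartate shuttle. In control mice 2 rose, 4 fell and 1 did not pass, in FAKO-labelled mice 3 rose, 2 fell and 2 did not pass, and Slc25a21, the oxodicarboxylate carrier, was not tested with 0 to 2 counts per mouse. Slc25a1 (ENSMUSG00000003528.14, chr16:17925223-17928219 on mm10, minus strand), which exports citrate, had 148 to 491 (median 167) CPM in control mice at 30 °C and 55.99, 53.2, 86.4, 112 and 70.4 at 5 °C. In FAKO-labelled mice it had 118 to 233 (median 174) at 30 °C and 50.7 to 171 (median 116) at 5 °C. All cold control mice were below all thermoneutral control mice, while the FAKO groups overlapped, with log2 fold changes of -1.60 (SE 0.30, adjusted p = 4.56e-05) and -0.54 (SE 0.26, adjusted p = 0.0731). The change in FAKO-labelled mice passed under other settings, for example with upper-quartile factors (-0.69, adjusted p = 0.0231) or without the control mouse numbered 7 (-0.56, adjusted p = 0.0252), and also without the FAKO mouse numbered 8, 24 or 28. Slc25a10, which carries malate and succinate against phosphate, had 11.9 to 87.3 (median 13.2) CPM in control mice at 30 °C and 6.702, 6.897, 9.87, 15.9 and 7.95 at 5 °C, and in FAKO-labelled mice 10.7 to 24.6 (median 15.3) and 7.76 to 14.5 (median 12.8). Both pairs of groups overlapped, and the log2 fold change was -1.42 (SE 0.42, adjusted p = 0.0045) and -0.58 (SE 0.37, adjusted p = 0.171). The control mouse numbered 7 had both the highest Slc25a1 (491 CPM) and the highest Slc25a10 (87.3 CPM) of its group, with 6263 CPM of muscle markers. It also had the lowest mitochondrially encoded share (14.3%) and the highest TMM factor (1.29) of all mice. The cold mice numbered 16 and 25, with 5554 and 8878 CPM of muscle markers, had 55.99 and 116 CPM of Slc25a1 and 6.70 and 13.1 of Slc25a10. The part of these features in the values was not tested. Without the mouse numbered 7 the log2 fold change of Slc25a10 in control mice was -0.67 (adjusted p = 0.0206), and that in FAKO-labelled mice passed (-0.60, adjusted p = 0.0160), as it did in a fit to only the groups compared (-0.62, adjusted p = 0.0129). Without all libraries over 1000 CPM of muscle markers, the value in control mice was -0.29 (adjusted p = 0.351) for Slc25a10 and -1.02 (adjusted p = 0.000846) for Slc25a1.

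Slc25a11, the oxoglutarate-malate carrier of the malate-aspartate shuttle, had 113 to 141 (median 133) CPM in control mice at 30 °C and 94.9, 86.3, 96.1, 87.7 and 90.5 at 5 °C. FAKO-labelled mice had 117 to 129.9 (median 122) and 81.6 to 131 (median 97.1). The control groups were apart and the FAKO groups overlapped, with log2 fold changes of -0.49 (SE 0.08, adjusted p = 6.48e-06) and -0.30 (SE 0.07, adjusted p = 0.000628). The aspartate-glutamate carriers complete the shuttle. Slc25a12 had 5.35 to 25.2 (median 7.55) CPM in control mice at 30 °C and 23.7, 10.1, 7.85, 10.5 and 18.03 at 5 °C, and in FAKO-labelled mice 6.72 to 12.3 (median 9.04) and 7.32 to 45.8 (median 10.9). Its log2 fold change was 0.41 (SE 0.42, adjusted p = 0.393) and 0.92 (SE 0.38, adjusted p = 0.0357), with all groups overlapping. The 3 highest values, 45.8, 25.2 and 23.7 CPM in a cold FAKO, a thermoneutral control and a cold control mouse, were in libraries with 8878, 6263 and 5554 CPM of these markers. Without the libraries over 1000 CPM of muscle markers, Slc25a12 passed in control mice (0.43, adjusted p = 0.0394) and not in FAKO-labelled mice (0.17, adjusted p = 0.382), where the call was also lost without the cold FAKO mouse numbered 25 (0.47, adjusted p = 0.230) and in 6 further fits lacking 1 mouse each (the FAKO mice numbered 9, 10, 11, 13, 22 and 24). Library-size scaling (0.50, adjusted p = 0.250), upper-quartile factors (0.75, adjusted p = 0.0813) and robust empirical Bayes (0.92, adjusted p = 0.0508) lost the FAKO call too. Slc25a13, the isoform typical of liver, was low, with 0.387 to 1.44 (median 0.967) CPM in control mice at 30 °C and 0.652, 0.766, 0.429, 0.624 and 0.518 at 5 °C, and 0.672 to 1.39 (median 1.12) and 0.478 to 1.41 (median 0.596) in FAKO-labelled mice. Its falls of -0.74 (SE 0.29, adjusted p = 0.0283) and -0.57 (SE 0.26, adjusted p = 0.0493) were close to the threshold, with groups that overlapped. Leaving out 1 mouse took the first above an adjusted p of 0.05 in 4 of 26 fits and the second in 19 of 26, and neither held without the libraries over 1000 CPM of muscle markers (adjusted p = 0.0955 and 0.409). The glutamate carriers Slc25a18 and Slc25a22 rose, by 0.63 (SE 0.17, adjusted p = 0.00234) and 0.33 (SE 0.10, adjusted p = 0.0053) in control mice, and by 0.66 (SE 0.16, adjusted p = 0.000643) and 0.54 (SE 0.09, adjusted p = 1.22e-05) in FAKO-labelled mice.

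**Figure D4:**
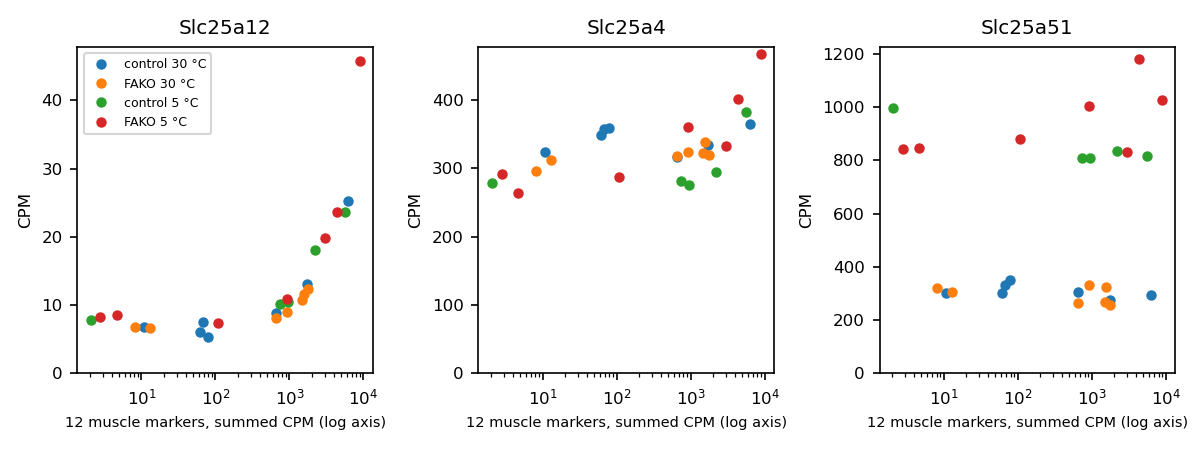
CPM of Slc25a12, Slc25a4 and Slc25a51 (y axes) in each of the 26 libraries against the summed CPM of 12 skeletal muscle markers (x axis, log scale), coloured by group. The highest Slc25a12 value, 45.8 CPM, is in the library with the highest muscle sum, 8878 CPM, while Slc25a51 is split by temperature over the whole range of the x axis.

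Carnitine and amino acid carriers feed beta-oxidation, the urea cycle amino acids, haem synthesis and branched-chain amino acid breakdown. Of the 6 members, 1 rose, 2 fell and 3 did not pass in control mice, and 2 rose, 2 fell and 2 did not pass in FAKO-labelled mice. Slc25a20 (ENSMUSG00000032602.6, chr9:108662088-108684641 on mm10, plus strand), which brings acylcarnitines into the matrix in exchange for carnitine, had 224 to 339 (median 279.8) CPM in control mice at 30 °C and 699, 659, 719, 622 and 691 at 5 °C. In FAKO-labelled mice it had 230.2 to 340.0 (median 262) and 580.2 to 837 (median 691). The cold mice were all above the thermoneutral mice, by 1.26 (SE 0.10, adjusted p = 4.64e-11) and 1.30 (SE 0.10, adjusted p = 5.63e-12) on the log2 scale. Slc25a44 (ENSMUSG00000050144.13, chr3:88410498-88425139 on mm10, minus strand), the branched-chain amino acid carrier, had 85.6 to 119 (median 99.98) CPM in control mice at 30 °C and 100.4, 105, 111, 107 and 121 at 5 °C. In FAKO-labelled mice the values were 80.6 to 98.3 (median 89.7) and 100.3 to 139.6 (median 132). The control groups overlapped and the FAKO groups did not, with log2 fold changes of 0.12 (SE 0.08, adjusted p = 0.173) and 0.52 (SE 0.07, adjusted p = 5.01e-07). Under library-size scaling these were -0.00 (adjusted p = 0.975) and 0.20 (adjusted p = 0.0913). The ornithine carrier Slc25a15 fell, with log2 fold changes of -0.30 and -0.26 in control and FAKO-labelled mice (adjusted p = 0.00398 and 0.0057), and so did Slc25a29, which carries basic amino acids, with -0.57 and -0.47 (adjusted p = 0.00581 and 0.0102). Slc25a38, a glycine carrier for haem synthesis, had log2 fold changes of 0.29 and 0.13 and Slc25a2, a further ornithine carrier at 0.173 to 0.898 CPM, of 0.59 and -0.13, none of which passed.

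Coenzymes, vitamins and pyrimidine nucleotides are carried by 9 members, of which 3 rose, 2 fell and 4 did not pass, in control mice and in FAKO-labelled mice alike. Slc25a17 (ENSMUSG00000022404.7, chr15:81318911-81360812 on mm10, minus strand) exchanges coenzyme A, FAD and NAD across the peroxisomal membrane. It had 30.6 to 40.7 (median 33.7) CPM in control mice at 30 °C and 288, 245, 293, 249 and 260.4 at 5 °C, and 30.7 to 41.8 (median 34.2) and 207 to 328 (median 283) in FAKO-labelled mice. The lowest cold mouse, at 207 CPM, was far above the highest thermoneutral mouse, at 41.8 CPM, and the rise was 7.50-fold in control mice (2.91 (SE 0.10, adjusted p = 3.07e-18) on the log2 scale) and 7.85-fold in FAKO-labelled mice (2.97 (SE 0.10, adjusted p = 5.41e-19)). Slc25a51 (ENSMUSG00000045973.18, chr4:45395923-45408766 on mm10, minus strand), which brings NAD into mitochondria, had 276 to 351 (median 302) CPM in control mice at 30 °C and 815, 807, 998, 807 and 834 at 5 °C. In FAKO-labelled mice it had 255 to 331 (median 307) and 832 to 1179 (median 879). Again the groups were far apart, with a rise of 2.76-fold in control mice (1.46 (SE 0.09, adjusted p = 1.26e-13) on the log2 scale) and 3.19-fold in FAKO-labelled mice (1.68 (SE 0.08, adjusted p = 2.22e-15)). Slc25a33, a pyrimidine nucleotide carrier, rose by 0.60 (SE 0.12, adjusted p = 9.18e-05) and 0.73 (SE 0.11, adjusted p = 1.93e-06).

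Slc25a16, which is linked to coenzyme A import, fell, with -0.59 and -0.45 (adjusted p = 6.2e-07 and 6.98e-06), without overlap. Slc25a42, the carrier for coenzyme A and adenine nucleotides, had 32.03 to 93.8 (median 56.6) CPM in control mice at 30 °C and 73.3, 67.4, 93.03, 77.8 and 76.2 at 5 °C, with 39.8 to 95.4 (median 55.7) and 34.7 to 85.9 (median 71.3) in FAKO-labelled mice. Its groups overlapped widely and neither change passed (0.33 (SE 0.22, adjusted p = 0.201) and 0.13 (SE 0.21, adjusted p = 0.575)). The S-adenosylmethionine carrier Slc25a26 (0.03 and -0.02), the folate or FAD carrier Slc25a32 (-0.24 and 0.21) and the pyrimidine nucleotide carrier Slc25a36 (-0.07 and -0.03) did not pass in either label. The standard errors of Slc25a26 and Slc25a36 were 0.07 in both comparisons.

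The iron and glutathione group holds 2 mitoferrins and 2 glutathione carriers, of which 1 rose, 1 fell and 2 did not pass in control mice, and the same counts were found in FAKO-labelled mice. Slc25a39 (ENSMUSG00000018677.9, chr11:102402985-102407946 on mm10, minus strand), which brings glutathione into mitochondria, had 131 to 158 (median 146) CPM in control mice at 30 °C and 250.5, 244, 234, 235 and 248 at 5 °C. In FAKO-labelled mice it had 128 to 155 (median 138) and 227 to 292 (median 233). Its groups were apart, with a rise of 0.75 (SE 0.07, adjusted p = 1.42e-10) and 0.83 (SE 0.06, adjusted p = 3.35e-12). Its close relative Slc25a40 had 6.47 to 12.99 (median 9.36) CPM in control mice at 30 °C and 5.58, 5.78, 5.84, 4.83 and 5.18 at 5 °C, and 8.61 to 12.4 (median 10.6) and 4.03 to 6.59 (median 5.54) in FAKO-labelled mice. It moved in the opposite direction, also without overlap, by -0.88 (SE 0.14, adjusted p = 5.82e-06) and -1.03 (SE 0.13, adjusted p = 8.96e-08). The mitoferrins, which import iron, overlapped between temperatures. Slc25a28 had 16.4 to 20.03 (median 17.8) and 14.3 to 18.5 (median 16.6) CPM at 30 °C in control mice and FAKO-labelled mice, and 13.3, 17.3, 14.6, 16.6 and 21.1 and 15.3 to 29.6 (median 17.6) at 5 °C, with log2 fold changes of -0.11 (SE 0.13, adjusted p = 0.453) and 0.22 (SE 0.11, adjusted p = 0.093). Slc25a37, the mitoferrin best known from erythroid cells, had 10.6 to 21.1 (median 14.9) and 11.4 to 17.9 (median 14.9) CPM at 30 °C, and 15.4, 17.8, 14.5, 13.6 and 12.1 and 11.00 to 23.3 (median 18.2) at 5 °C, with -0.04 (SE 0.16, adjusted p = 0.827) and 0.24 (SE 0.15, adjusted p = 0.159). All 8 erythroid markers rose in the cold in FAKO-labelled mice (summed 294 to 618 CPM at 30 °C and 524 to 1513 at 5 °C) and 0 of 8 in control mice (236 to 1137 and 423 to 691), with 0 of 8 passing the interaction, and their part in the Slc25a37 values was not tested. Without the libraries over 1000 CPM of muscle markers, Slc25a37 passed in FAKO-labelled mice (0.46, adjusted p = 0.0136), as it did without the cold FAKO mouse numbered 24 (0.32, adjusted p = 0.0447). Slc25a28 passed there without the cold FAKO mouse numbered 23 (0.26, adjusted p = 0.0497).

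The last group holds the uncoupling protein-like carriers and those whose solute is unsettled or was named only lately, 11 members in all. In both comparisons 3 rose, 5 fell and 2 did not pass, and Slc25a43, with 0 to 5 counts per mouse, was not tested. Slc25a34 (ENSMUSG00000040740.7, chr4:141618824-141623821 on mm10, minus strand), which has no settled substrate, was near the floor at 30 °C, with 0.567 to 1.11 (median 0.749) CPM in control mice and 0.295 to 3.099 (median 0.845) in FAKO-labelled mice. After 6 h at 5 °C it had 63.1, 46.4, 89.6, 59.1 and 80.02 CPM in control mice and 50.05 to 138 (median 106) in FAKO-labelled mice. The lowest cold mouse was above the highest thermoneutral mouse by more than an order of magnitude. The rise was 81.6-fold in control mice (6.35 (SE 0.34, adjusted p = 1.11e-14) on the log2 scale) and 87.1-fold in FAKO-labelled mice (6.44 (SE 0.32, adjusted p = 2.02e-15)), which was beyond that of Ucp1 in the same mice (4.02 and 4.34). Counts of Slc25a34 per mouse were 9 to 24 and 5 to 60 at 30 °C, so that the size of the fold is set by few reads. Slc25a46, an outer-membrane protein of mitochondrial fusion and fission, rose by 0.97 (SE 0.06, adjusted p = 5.56e-13) and 1.06 (SE 0.06, adjusted p = 1.75e-14), and Slc25a30, an uncoupling protein-like carrier, by 0.80 (SE 0.11, adjusted p = 3.62e-07) and 1.11 (SE 0.10, adjusted p = 2.21e-10). In both genes the cold mice were all above the thermoneutral mice.

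Slc25a48 (ENSMUSG00000021509.5, chr13:56438355-56474239 on mm10, plus strand), which imports choline into mitochondria, had 11.7 to 18.6 (median 14.8) CPM in control mice at 30 °C and 2.85, 1.88, 2.62, 2.08 and 1.498 at 5 °C. In FAKO-labelled mice it had 10.3 to 18.1 (median 11.6) and 1.45 to 4.19 (median 2.13). Every cold mouse was below every thermoneutral mouse, and the log2 fold change was -2.78 (SE 0.21, adjusted p = 1.19e-11) and -2.38 (SE 0.19, adjusted p = 1.5e-11). Slc25a27, an uncoupling protein-like carrier best known from brain, had 3.03 to 4.84 (median 3.38) CPM in control mice at 30 °C and 1.305, 1.32, 1.42, 1.04 and 1.79 at 5 °C, and 2.85 to 4.42 (median 3.099) and 0.619 to 1.85 (median 1.403) in FAKO-labelled mice. It fell without overlap, by -1.41 (SE 0.21, adjusted p = 1.63e-06) and -1.48 (SE 0.19, adjusted p = 1.26e-07). Slc25a35, likewise without a settled substrate, had 23.7 to 31.7 (median 30.5) CPM in control mice at 30 °C and 12.9, 14.8, 14.1, 14.8 and 14.7 at 5 °C, and 26.5 to 28.6 (median 26.9) and 10.1 to 18.4 (median 15.6) in FAKO-labelled mice. Its direction was opposite to that of Slc25a34, with -1.05 (SE 0.10, adjusted p = 7.29e-10) and -0.84 (SE 0.09, adjusted p = 4.54e-09) and no overlap. Slc25a45 fell, with -0.76 and -0.59 (adjusted p = 0.00106 and 0.00394), as did Slc25a47, known as a liver carrier, with -0.81 and -0.54 (adjusted p = 2.77e-05 and 0.00089). Slc25a14, an uncoupling protein-like carrier of brain, had 2.18 to 3.25 (median 2.55) and 1.83 to 2.400 (median 2.07) CPM at 30 °C, and 1.898, 3.27, 2.27, 2.23 and 2.65 and 1.57 to 2.44 (median 2.15) at 5 °C, with log2 fold changes of -0.06 (SE 0.14, adjusted p = 0.724) and -0.05 (SE 0.13, adjusted p = 0.791), and Slc25a53 had -0.41 and -0.15 without passing.

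Of the named carriers, Slc25a5 had the longest near-identical copies elsewhere, processed copies of up to 900 bases at 95.3% to 98.3% identity, none of which exceeded 1.35 CPM in a mouse while Slc25a5 had a mean of 277 CPM. Slc25a40 and Slc25a36 each had 1 copy of over 500 bases, below 0.5 CPM. Shorter stretches of exon were shared by Slc25a51 with 94 other genes (up to 161 bases), by Slc25a23 with 32 (up to 156), by Slc25a42 with 30 (up to 138) and by Slc25a20 with 26 (up to 366). A listed miRNA inside Slc25a51 on the same strand, over 125 bases, had 0 CPM. Exons of 11 members overlap a gene on the opposite strand by 100 bases or more, for example Slc25a35 and Rangrf (1151 bases, Rangrf at a mean of 0.158 CPM). The partners with the highest means were Lrig1 (50.4 CPM), over 144 bases of Slc25a26 (26.8 CPM), and Rnf167 (42.6 CPM), over 189 bases of Slc25a11 (112 CPM). The kit keeps strand, but the strand setting of the counting is not given in the sources used here. Its handling of reads that match several genes is not given either. Low counts of the copies and of the miRNA therefore do not show that their RNA was absent.

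The label was then compared at each temperature. No carrier passed at 30 °C, where 14 of all genes tested did (0.081%, or 0.0579% up and 0.0231% down). An unadjusted p below 0.05 was found for 2 of 42 members, beside 1322 of all 17286 genes. Log2 fold changes were negative for 31 of 42 members, with a median of -0.06 against -0.02 for all genes, while under library-size scaling 34 of 42 were positive and the all-gene median was 0.13, so that the direction rests on the scaling. The smallest unadjusted p-values belonged to Slc25a14 (-0.29 (SE 0.13, adjusted p = 0.594)), Slc25a44 (-0.16 (SE 0.07, adjusted p = 0.599)) and Slc25a5 (-0.11 (SE 0.06, adjusted p = 0.663)), and the groups overlapped in each. No member was apart between the labels, against 0.174% of genes above and 0.0752% below. DESeq2 called 0 members as well.

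At 5 °C 0 of 42 carriers passed between the labels, where 24 genes did (0.139%, or 0.0463% up and 0.0926% down). Of the 42, 3 had an unadjusted p below 0.05, beside 2323 of all 17286 genes. The log2 fold change was positive for 36 of 42 members, and for 31 of 42 under library-size scaling, with a median of 0.11 against 0.02 for all genes. Slc25a44 (0.23 (SE 0.08, adjusted p = 0.203)), Slc25a1 (0.61 (SE 0.29, adjusted p = 0.366)) and Slc25a34 (0.54 (SE 0.26, adjusted p = 0.366)) had the smallest unadjusted p-values. Each had overlapping groups, as did all members (0.33% of genes were apart above and 0.781% below). Of 4 nuclear-retained RNAs, looked at as a possible sign of how RNA was recovered, 1 (Neat1) fell with the label at 5 °C. Together they summed to 14840 to 16273 CPM in control mice and 10340 to 13577 in FAKO-labelled mice. At 30 °C none of the 4 passed, and the sums were 8951 to 10573 and 10423 to 11779. In the cold 3 of the 4 rose in control mice, and 2 rose and 1 fell in FAKO-labelled mice. The part of these RNAs in the label values and the cold values was not tested.

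Whether the cold response differed between the labels was tested as an interaction. No carrier passed, against 200 of all genes (1.16%, or 0.289% up and 0.868% down). Here 4 of 42 members had an unadjusted p below 0.05, beside 2804 of all 17286 genes. The difference was positive for 36 of 42 members (median 0.17 against 0.04 for all genes), but for 18 of 42 under library-size scaling, which put the all-gene median at -0.15. Slc25a44 came nearest, at 0.39 (SE 0.11, adjusted p = 0.0652), and passed with DESeq2 (0.42, adjusted p = 0.0174). Leaving out the thermoneutral control mouse numbered 5 (0.43, adjusted p = 0.0490) or the cold FAKO mouse numbered 22, which had the lowest Slc25a44 of its group (0.44, adjusted p = 0.0197), also took it past the threshold. Over all 26 fits lacking 1 mouse, the Slc25a44 interaction ran from 0.35 to 0.44, with an adjusted p of 0.0197 to 0.126. Under library-size scaling the cold changes of Slc25a44 were -0.00 in control mice and 0.20 in FAKO-labelled mice. For the carriers called in 1 label only, the interaction was 1.06 (SE 0.39, adjusted p = 0.174) for Slc25a1, 0.84 (SE 0.56, adjusted p = 0.475) for Slc25a10, 0.51 (SE 0.57, adjusted p = 0.706) for Slc25a12 and 0.58 (SE 0.47, adjusted p = 0.576) for Slc25a25. None of these is shown to differ between the labels. Without the thermoneutral control mouse numbered 7, the interaction was 0.07 (adjusted p = 0.942) for Slc25a10 and 0.10 (adjusted p = 0.948) for Slc25a12, and without the cold FAKO mouse numbered 25 it was 0.06 (adjusted p = 0.974) for Slc25a12. Of the 4 nuclear-retained RNAs, 2 (Neat1 and Kcnq1ot1) fell in the interaction, and their part in these values was not tested.

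**Figure D5:**
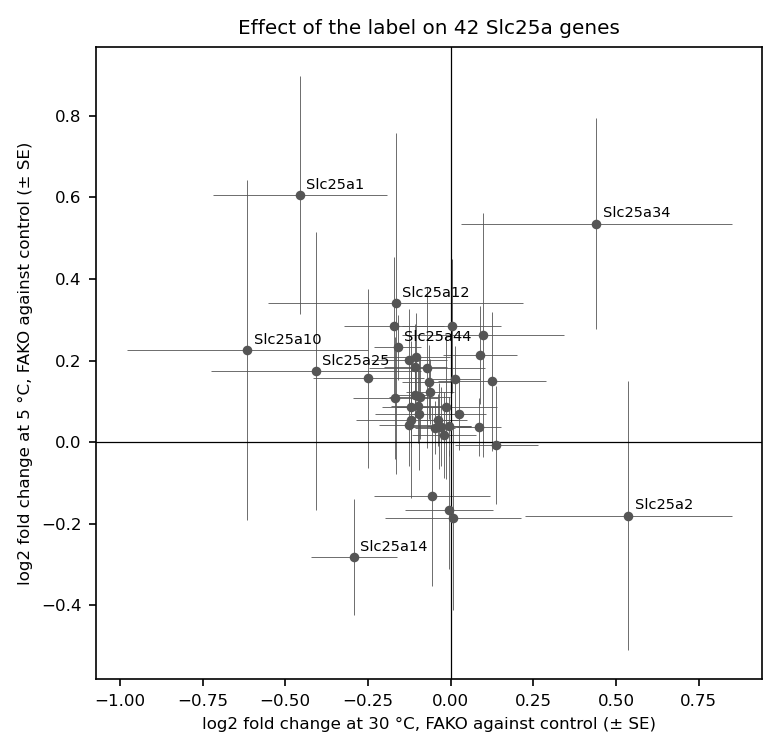
Log2 fold change of FAKO-labelled over control mice for the 42 tested carriers at 30 °C (x axis, 7 against 7 mice) and 5 °C (y axis, 7 against 5), each ± SE, on the TMM scale. No point passed the threshold on either axis, and under library-size scaling 34 of 42 points would lie right of 0 in place of 11.

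Other transporters of the mitochondrial membranes, a list chosen by hand, were set beside the family. Of 28 such genes outside it, 12 rose and 11 fell in the cold in control mice, and 13 and 7 in FAKO-labelled mice, with 0 changed between the labels. Among all genes tested, 31.6% rose and 33.4% fell in control mice, and 33.7% and 34.9% in FAKO-labelled mice. Between the labels, 0.081% of all genes passed at 30 °C and 0.139% at 5 °C. Ucp1, the uncoupling protein of brown fat, had a mean of 985 CPM in control mice at 30 °C and 16005 at 5 °C. The pyruvate carrier subunit Mpc2 rose by 0.81 and 1.08 on the log2 scale (adjusted p = 1.1e-07 and 1.2e-10) in control mice and FAKO-labelled mice, and Letm1, of cation exchange, by 1.04 and 1.08 (adjusted p = 1.8e-11 and 1.9e-12). The ABC transporters Abcb10 and Abcb8 fell, Abcb10 with -0.95 and -0.91 (adjusted p = 4.2e-10 and 1.1e-10) and Abcb8 with -0.76 and -0.61 (adjusted p = 3.5e-09 and 2.6e-08). Of the sideroflexins, a family that includes serine carriers, Sfxn3 rose by 0.98 and 1.34 and Sfxn4 fell, with -1.42 and -1.38.

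Enzymes that make or use the carried solutes were listed beside them, and 39 of 40 were tested. In the cold 19 rose and 10 fell in control mice, and 22 and 8 in FAKO-labelled mice, with 0 changed between the labels. This list was also chosen by hand. The shares of all genes were 31.6% up and 33.4% down in control mice, and 33.7% and 34.9% in FAKO-labelled mice. Acly, which splits the citrate that Slc25a1 exports, had a mean of 1814 CPM in control mice at 30 °C and 265 at 5 °C, a change of -2.78 (adjusted p = 2.7e-08) in control mice and -1.63 (adjusted p = 7.4e-06) in FAKO-labelled mice. Got1, the cytosolic aminotransferase of the malate-aspartate shuttle, went from a mean of 13.9 to 158 CPM in control mice, by 3.50 and 3.44 on the log2 scale (adjusted p = 1.2e-17 and 5.3e-18), while its mitochondrial counterpart Got2 did not pass (-0.00 and 0.25). The carnitine palmitoyltransferase Cpt1b rose by 0.60 and 0.62 (adjusted p = 3.6e-06 and 6.3e-07), in the same direction as Slc25a20. Gclm and Gclc, which make the precursor of glutathione, rose by 0.91 and 0.71 in control mice (adjusted p = 1.9e-10 and 1.7e-06). Alas1, the first enzyme of haem synthesis, fell, with -1.08 and -0.90 (adjusted p = 7e-09 and 2.1e-08).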

How the data were processed

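RNA-sequencing counts of BAT from 26 mice in 4 groups were used, with groups taken from the sample labels. The libraries were rRNA-depleted, stranded and read as 100-base single ends. The authors used STAR v2.5.2b for alignment to the mm10 genome and featureCounts v1.5.2 for counting by gene, per the labels and methods, and deposited raw counts, not normalized. All 26 columns were used. Of the 50686 gene identifiers, 50462 had a symbol in GENCODE M21, which is on the same build.

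Genes kept by filterByExpr were tested in R 4.3.3 with edgeR 4.0.16 (legacy quasi-likelihood test, 1 term per group, TMM factors, Benjamini-Hochberg adjustment over all tested genes, threshold 0.05). The standard error is the log2 fold change divided by the square root of F. CPM are counts per 1000000 of the TMM-scaled library. All 73 pairs of mice of the same group differed by more than sampling noise (lowest chi-square per gene 4.92). The labels give each mouse its own number. The steps were tested on simulated counts.

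The members and lists were chosen with earlier results of these data known. Values by mouse for the cold control mice, and ranges with medians for the other groups, are given for 16 carriers of the main fluxes. They are also given for the 5 members with the largest rise and the 5 with the largest fall among those called in each cold comparison and averaging 1 CPM or more, and for the 3 members with the smallest p where none passed. 1 member and 1 enzyme are not reported here, though counts include them. Other members with values by group were chosen after their values were seen. Alternatives were DESeq2 1.42.0, library size alone or upper-quartile factors, no filter or a minimum of 10 counts per mouse, the revised quasi-likelihood method, robust empirical Bayes (limma 3.58.1), a fit to only the groups compared, leaving out each mouse, and, added after seeing the data, leaving out the libraries over 1000 CPM of muscle markers.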

Additional observations from a re-analysis of the deposited data

Results flagged for a closer look

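Within each of the 4 groups, the highest and lowest mouse of the 25 named carriers and of the family sum were compared with the others by Dixon's ratio, and 13 of 104 groups held a mouse beyond its 95% limit, where chance flags about 1 in 20. Among control mice at 30 °C, the mouse numbered 7 was high for Slc25a1 (491 CPM, next 270.0), Slc25a10 (87.3, next 23.3) and Slc25a12 (25.2, next 13.1), the mouse numbered 6 was high for Slc25a24 (8.05, next 6.49), and the mouse numbered 3 was low for Slc25a35 (23.7, next 28.98). Among control mice at 5 °C, the mouse numbered 16 was high for Slc25a4 (383 CPM, next 294) and the mouse numbered 18 for Slc25a51 (998, next 834). In FAKO-labelled mice at 30 °C, the mouse numbered 13 was high for Slc25a34 (3.10 CPM, next 1.30). In FAKO-labelled mice at 5 °C, the mouse numbered 27 was high for Slc25a13 (1.41 CPM, next 0.769) and Slc25a28 (29.6, next 18.9) and low for Slc25a42 (34.7, next 67.6). The mouse numbered 25 was high for Slc25a12 (45.8 CPM, next 23.7), and the mouse numbered 22 was low for Slc25a44 (100.3, next 125). The mice numbered 7, 16 and 25 had 6263, 5554 and 8878 CPM of muscle markers, the highest of their groups, and the mouse numbered 27 had 4.67.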

How the results depend on the processing

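The counts of carriers that rose or fell in the cold stayed within 1.5 times of those reported under every alternative run. Fits lacking 1 mouse each gave 13 to 14 up and 14 to 17 down in control mice, 15 to 17 up and 12 to 15 down in FAKO-labelled mice, 0 to 0 for both directions of the label at 30 °C and at 5 °C, and 0 to 1 up and 0 to 0 down for the interaction. The count up for the interaction was 1 with DESeq2, which is Slc25a44; the cause was not tested. No named carrier that passed in either fit changed sign. The counts over all genes moved more. At 30 °C, 10 genes up and 4 down became 30 and 10 with DESeq2, 34 and 0 under library-size scaling, 8 and 1 without the filter, 13 and 1 with upper-quartile factors or in a fit to the groups compared, and 10 and 2 with robust empirical Bayes. At 5 °C, 8 and 16 became 112 and 79 with DESeq2, 4 and 1 under library-size scaling, 7 and 8 without the filter, 11 and 34 with a minimum of 10 counts per mouse, 6 and 3 in a fit to the groups compared and 4 and 1 without the libraries over 1000 CPM of muscle markers. For the interaction, 50 and 150 became 252 and 238 with DESeq2, 0 and 278 under library-size scaling, 27 and 246 with upper-quartile factors, 0 and 27 without the filter and 2 and 29 without the libraries over 1000 CPM of muscle markers. With each mouse left out, the ranges were 6 to 62 up and 1 to 31 down at 30 °C, 4 to 62 and 3 to 38 at 5 °C, and 2 to 126 and 47 to 258 for the interaction. The 62 up and 31 down at 30 °C came without the control mouse numbered 7. The cause was not tested. Members with few reads (Slc25a2, Slc25a13, Slc25a34 at 30 °C) limit how finely their changes can be read. No paired analysis was possible because each mouse has a number of its own and the groups share none.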
